A study of Malus domestica with 6 samples.

Results

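Anthocyanin colour in apple is controlled by the MBW complex, in which an R2R3-MYB activator, a bHLH protein and a WD40 protein act together on the promoters of the pigment genes. MdMYB10 is the MYB activator known for red flesh in apple. TTG1 is the WD40 scaffold that holds the MYB and bHLH partners together, as characterised in Arabidopsis. In Arabidopsis the MYB3 protein is known for holding down pigment and related phenolic genes. The 4 genes described here are the MYB and WD40 regulators MdMYB10 (MD09G1278600, annotated in the study as a MYB113 gene), MdTTG1 (MD01G1228700), MdMYB3 (MD15G1411200) and a gene annotated as MYB116 (MD06G1217200, whose role in apple is not described in the sources used here). They were taken by their identifiers from 52311 gene IDs, and the identifiers place them on chromosomes 9, 1, 15 and 6.

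The libraries came from the mesocarp of the red-flesh apple cv. 'R201' at 84 days after full bloom, with 3 libraries of red flesh (RF) and 3 of white flesh (WF), lettered A to C in both. No treatment was applied. Each fruit gave both tissues, RF from the outer and WF from the inner cortex, so colour cannot be told apart from position. The replicates were semi-biological, that is, fruits from different trees of 1 cultivar, and p-values measure the spread between such fruits only. Each library held between 25536185 and 26050906 estimated reads over 34885 to 35306 genes with reads. In bulk tissue, fewer cells of a type and less RNA per cell cannot be told apart.

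The 4 genes were selected on their measured RF and WF levels, with the fold changes of this comparison already known. The values of RF against WF are therefore given as a description, without a test. In the edgeR quasi-likelihood fit of RF over WF all 4 were among the called genes (adjusted p under 0.05), beside 10.8% of the 28610 genes tested (3 of the 4 without WF library A, RF library A or RF library B, and 2 without WF library B). MdMYB10 and MYB116 were called higher, beside 6.08% of all genes, and MdTTG1 and MdMYB3 lower, beside 4.68%, and nothing is read from these counts. Levels are given in TPM, transcript abundance corrected for length and scaled to the same total in each library, so that genes can be set side by side.

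MdMYB10 was higher in RF, and the difference was moderate. Its level was 28.4, 35.3 and 30.8 TPM in RF libraries A, B and C, against 19.0, 21.3 and 24.3 TPM in WF libraries A, B and C. The lowest RF library lay above the highest WF library, so the groups did not overlap. The means were 31.5 ± 3.49 TPM in RF and 21.6 ± 2.65 TPM in WF (SD, n = 3 each), and the log2 fold change of counts was 0.55 (SE 0.10, 95% interval 0.32 to 0.78). These levels rested on 564 to 707 counts in RF and 386 to 500 counts in WF. The gene was thus well expressed in both tissues, and its transcripts were present in white flesh as well.

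MdTTG1 ran the other way and was slightly lower in RF. Its level was 44.5, 40.8 and 47.4 TPM in RF libraries A, B and C, against 53.0, 54.1 and 52.6 TPM in WF libraries A, B and C. The groups did not overlap, and the WF libraries lay much closer to each other than the RF libraries did. The means were 44.2 ± 3.33 TPM in RF and 53.2 ± 0.80 TPM in WF (SD, n = 3 each). The log2 fold change was -0.27 (SE 0.07, 95% interval -0.41 to -0.12), on 1162 to 1377 counts in RF and 1537 to 1566 counts in WF. The study reported MdTTG1 as not differentially expressed. Its sets of up- and down-regulated genes also required a minimum fold change, which was not used here.

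MdMYB3, the presumed repressor, was close to the limit of detection in RF. It had 7, 9 and 2 counts in RF libraries A, B and C, against 19, 28 and 22 counts in WF libraries A, B and C. Exact 95% Poisson intervals, which cover counting error only, were 2.81 to 14.4, 4.12 to 17.1 and 0.242 to 7.22 counts in RF and 11.4 to 29.7, 18.6 to 40.5 and 13.8 to 33.3 counts in WF. The intervals of RF libraries A and B overlapped those of WF libraries A and C but not that of WF library B, and the interval of RF library C overlapped none of them. This too is a description, on values that chose the gene. Levels were 0.288, 0.368 and 0.081 TPM in RF and 0.765, 1.13 and 0.874 TPM in WF, with means of 0.246 ± 0.148 TPM in RF and 0.922 ± 0.187 TPM in WF (SD, n = 3 each). The log2 fold change was -1.89 (SE 0.42, 95% interval -2.81 to -0.98), the widest interval of the 4 genes. MdMYB3 passed the filter on low counts through its WF libraries only, since all RF libraries lay at or under 0.350 CPM (counts scaled to library size) and the filter was set at 0.389 CPM. A gene that enters in this way had to differ between the tissues.

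MYB116 was the most abundant of the 4 genes in RF and had the largest difference in TPM between the tissues. Its level was 116, 95.0 and 103 TPM in RF libraries A, B and C, against 55.8, 53.4 and 53.2 TPM in WF libraries A, B and C. Every RF library lay far above every WF library. The means were 105 ± 10.7 TPM in RF and 54.1 ± 1.41 TPM in WF (SD, n = 3 each), and the log2 fold change was 0.96 (SE 0.08, 95% interval 0.78 to 1.13). The gene had 2566 to 3127 counts in RF and 1466 to 1533 counts in WF.

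**Figure D1:**
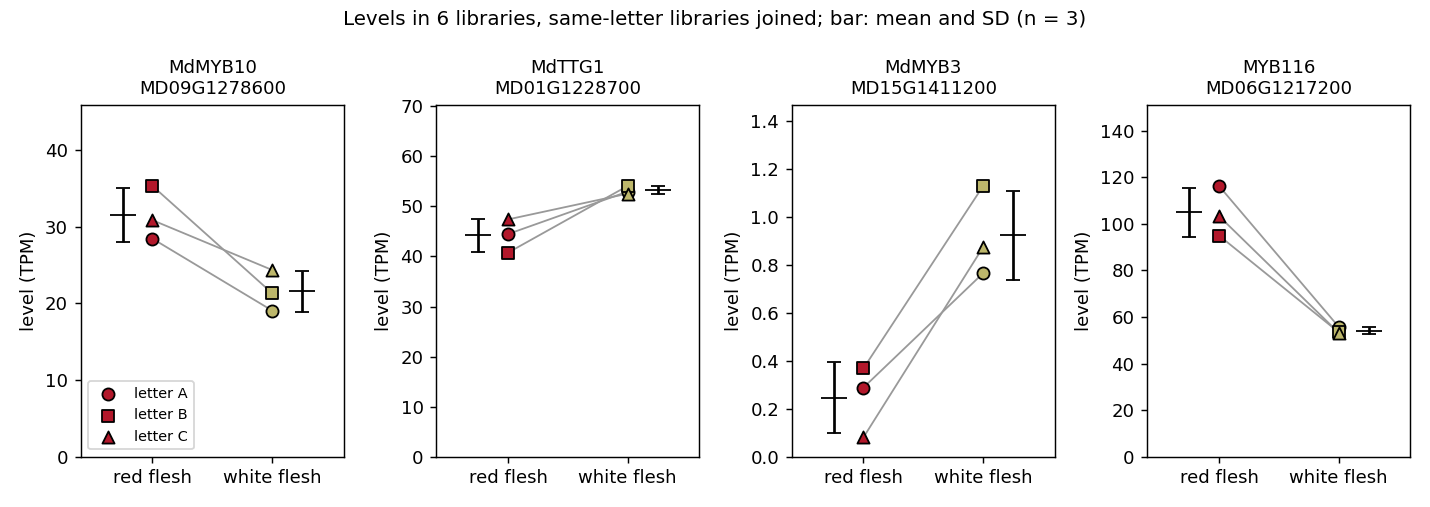
Level in TPM (vertical axis, from 0, a scale for each gene) of the 4 regulators in RF libraries (left of each panel) and WF libraries (right), with same-letter libraries joined and the mean and SD of 3 libraries as bars. MdMYB10 and MYB116 are higher and MdTTG1 and MdMYB3 lower in RF for all 3 letters, and the WF libraries of MdTTG1 and MYB116 lie close together.

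By level, the order in RF was MYB116, MdTTG1, MdMYB10 and MdMYB3. In WF, MYB116 at 54.1 TPM and MdTTG1 at 53.2 TPM were closest, their libraries overlapped in range (53.2 to 55.8 TPM for MYB116 and 52.6 to 54.1 TPM for MdTTG1), and neither can be placed above the other. All other neighbours in both orders were separated without overlap. Among genes with reads in a library, MYB116 stood at percentiles 94.7 to 95.9 of TPM in RF and 90 to 90.3 in WF. MdMYB10 stood at percentiles 81.2 to 84.6 in RF and 73.6 to 78.4 in WF, and MdMYB3 at 3.81 to 13 in RF and 19.5 to 24 in WF. MdMYB3, the presumed repressor among the 4 genes, was therefore a rare transcript in both tissues, whereas MdMYB10 ranked among the upper part of expressed genes in both. This does not hold for repressors in general, since the study also cites MYB44 and MdMYB6 as repressors. MYB44 had means of 112 TPM in RF and 126 TPM in WF. A gene described as myb domain protein 6, which may not be MdMYB6, had 25.7 TPM in RF and 34.4 TPM in WF.

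Same-letter libraries were set against each other, since RF and WF of a letter were taken as pairs. For MdMYB10, RF exceeded WF by 1.49-fold in pair A, 1.66-fold in pair B and 1.27-fold in pair C. The pair with the highest RF level of MdMYB10 (B) was also the pair with the largest difference, whereas pair C combined an intermediate RF level with the highest WF level. For MYB116, RF exceeded WF by 2.09-fold in pair A, 1.78-fold in pair B and 1.94-fold in pair C, a narrower span on the log2 scale. For MdTTG1 the log2 differences of TPM were -0.25, -0.41 and -0.15 in pairs A, B and C. MdTTG1 and MdMYB10 thus had their largest difference in the same pair, B, and their smallest in the same pair, C. For MdMYB3 the log2 differences of TPM were -1.41, -1.62 and -3.44 in pairs A, B and C, and the last rested on 2 reads in RF library C. No pair went against the direction of the group means for any of the 4 genes. This had to follow, since RF and WF libraries overlapped for none of them, so the pairs add nothing on direction.

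The bHLH partner named in the study, MdbHLH3 (MD10G1281100, chromosome 10), was higher in RF. It had 4.90, 5.24 and 4.10 TPM in RF libraries A, B and C, against 3.14, 3.12 and 2.45 TPM in WF libraries A, B and C. The log2 fold change was 0.71 (edgeR adjusted p = 0.0117, SE 0.15). RF exceeded WF by 1.56-fold, 1.68-fold and 1.67-fold in pairs A, B and C. Without RF library A the call was lost (edgeR adjusted p = 0.0528, over a range of 0.00153 to 0.0528 in all alternatives). MdbHLH3 was named in the study after its own comparison of these samples, so the call is not independent evidence of direction.

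**Figure D2:**
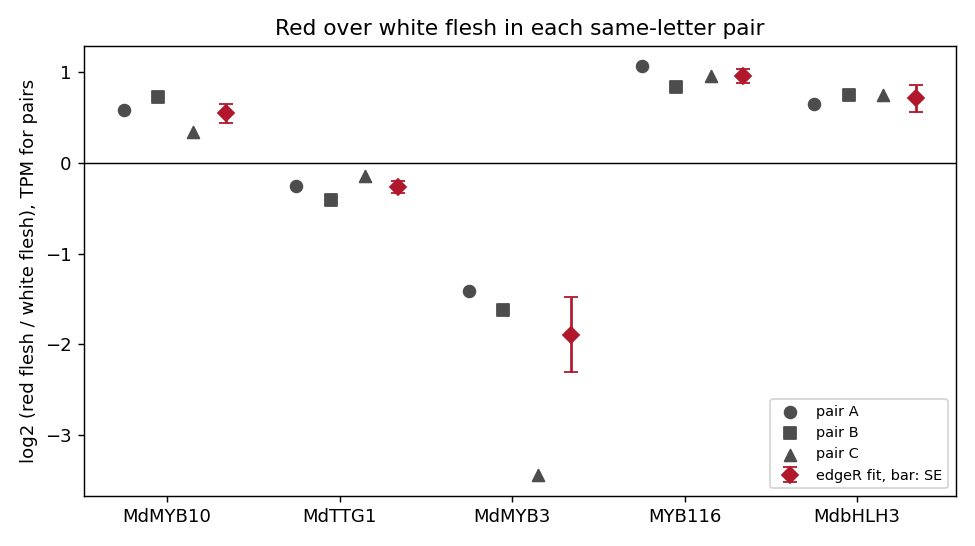
Difference between RF and WF as log2 of the TPM ratio (vertical axis) within each same-letter pair (grey symbols A, B and C) and from the edgeR fit of counts (red diamond, bar SE) for the 4 regulators and MdbHLH3. MdMYB3 spreads from -1.41 to -3.44 over the pairs, while MdbHLH3 lies between 0.64 and 0.75.

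The balance of activator to presumed repressor was read as the ratio of TPM values within a library, and is built from the differences that chose the genes. The ratio of MdMYB10 to MdMYB3 was 98.7, 95.9 and 383 in RF libraries A, B and C, against 24.9, 18.9 and 27.9 in WF libraries A, B and C. RF library C stood apart from the other RF libraries because MdMYB3 had only 2 counts there. The RF ratio was 3.96, 5.08 and 13.7 times the WF ratio in pairs A, B and C, and the geometric means differed 6.51-fold (log2 difference 2.70). Most of this difference came from the denominator, with mean log2 differences of TPM over the pairs of 0.55 for MdMYB10 and -2.15 for MdMYB3. The latter includes -3.44 in pair C, on the 2 counts in RF. From counts, the log2 fold change of MdMYB3 was -1.89. Adding 0.5 TPM to both genes before the ratio, which damps low levels, gave a log2 difference of 1.48. In absolute terms, MdMYB10 exceeded MdMYB3 in every library of both tissues. The ratio covers these genes only, and other repressors cited in the study, such as MYB44, were not part of it.

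The ratio of MYB116 to MdMYB3 was 404, 258 and 1282 in RF libraries A, B and C, against 72.9, 47.4 and 60.9 in WF libraries A, B and C. The ratio of MdMYB10 to the WD40 partner MdTTG1 was 0.639, 0.866 and 0.650 in RF, against 0.360, 0.394 and 0.463 in WF. MdMYB10 thus stayed below MdTTG1 in every library, and nearer to it in RF. The ratio of MYB116 to MdTTG1 was 2.61, 2.33 and 2.18 in RF, against 1.05, 0.988 and 1.01 in WF.

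The ratio of MdMYB10 to MdbHLH3 overlapped between the tissues. It was 5.79, 6.74 and 7.51 in RF libraries A, B and C, against 6.06, 6.83 and 9.93 in WF libraries A, B and C. The geometric mean of RF was 0.894 times that of WF. The MYB and bHLH partners were thus both more abundant in RF while the libraries of their ratio overlapped. Within pairs A, B and C, the RF ratio was 0.956, 0.987 and 0.757 times the WF ratio, below it in each. The ratio of MdTTG1 to MdbHLH3 was 9.07, 7.79 and 11.6 in RF, against 16.9, 17.3 and 21.4 in WF, without overlap. In TPM, MdbHLH3 was the least abundant of the 3 MBW partners named here in all 6 libraries. This covers the bHLH gene named in the study, and other bHLH genes were not set against MdMYB10 or MdTTG1.

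**Figure D3:**
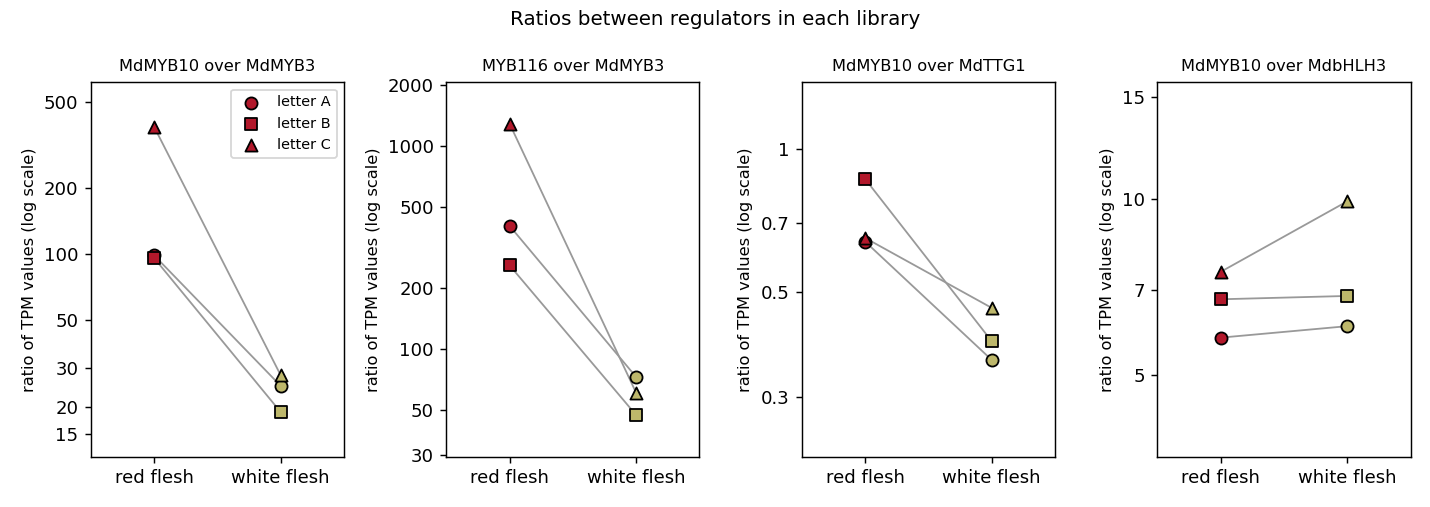
Ratio of TPM values between regulators (vertical axes, log scale) in RF libraries (left of each panel) and WF libraries (right), with same-letter libraries joined. The ratios of MdMYB10 and MYB116 to MdMYB3 and of MdMYB10 to MdTTG1 do not overlap between the tissues, whereas that of MdMYB10 to MdbHLH3, at 5.79 to 7.51 in RF and 6.06 to 9.93 in WF, does.

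Differences between the letters A, B and C, which were not used in choosing the genes, could be tested. The edgeR quasi-likelihood test of the letter in the fit with flesh type and letter called 669 of 28610 genes (2.34%), and 0 of the 4 regulators. Before adjustment 1 of the 4, MYB116, lay under 0.05 in edgeR, and DESeq2, which gave no adjusted p for MdMYB3, also called 0. The edgeR adjusted p-values were 0.324 for MdMYB10, 0.694 for MdTTG1, 0.632 for MdMYB3 and 0.273 for MYB116. For MdMYB10, letters B and C lay above letter A by 0.23 on the log2 scale (95% interval 0.023 to 0.44 for B and 0.015 to 0.44 for C, not adjusted). For MYB116, letter B lay below letter A (log2 difference -0.20, 95% interval -0.35 to -0.05, not adjusted). Without RF library C, MdMYB10 was called for the letter (edgeR adjusted p = 0.0169, over a range of 0.0169 to 1.00 in all alternatives), in a fit that called 9.57% of genes.

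Some pigment genes differed between letters in both tissues together. Of the 22 genes of anthocyanin synthesis and transport listed from the study's called genes, 7 were called for the letter by the same edgeR test. The count was 4 with robust dispersion estimation and 11 without RF library C or WF library C. Letter C was lowest in 6 of the 7 and letter B in 1, and letter A was lowest in 0. Letter A was the lowest for MdMYB10. The clearest was UDP-glucosyl transferase 78D2 (MD07G1306900), which in Arabidopsis adds glucose to anthocyanidins, with 97.1, 27.7 and 79.8 TPM in RF libraries A, B and C, against 11.8, 5.50 and 9.08 TPM in WF libraries A, B and C. Its level was lower in letter B than in letter A in both tissues (log2 difference -1.62, 95% interval -1.91 to -1.33, edgeR adjusted p for the letter = 9.69e-05). Letter B, lowest for this glucosyltransferase in both tissues, had the highest level of MdMYB10 in RF only. In WF, MdMYB10 was highest in letter C (24.3 TPM, against 21.3 TPM in B). Over both tissues letters B and C were alike for MdMYB10 (log2 difference C minus B -0.01, 95% interval -0.22 to 0.20, not adjusted). MdMYB10 was not called for the letter.

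**Figure D4:**
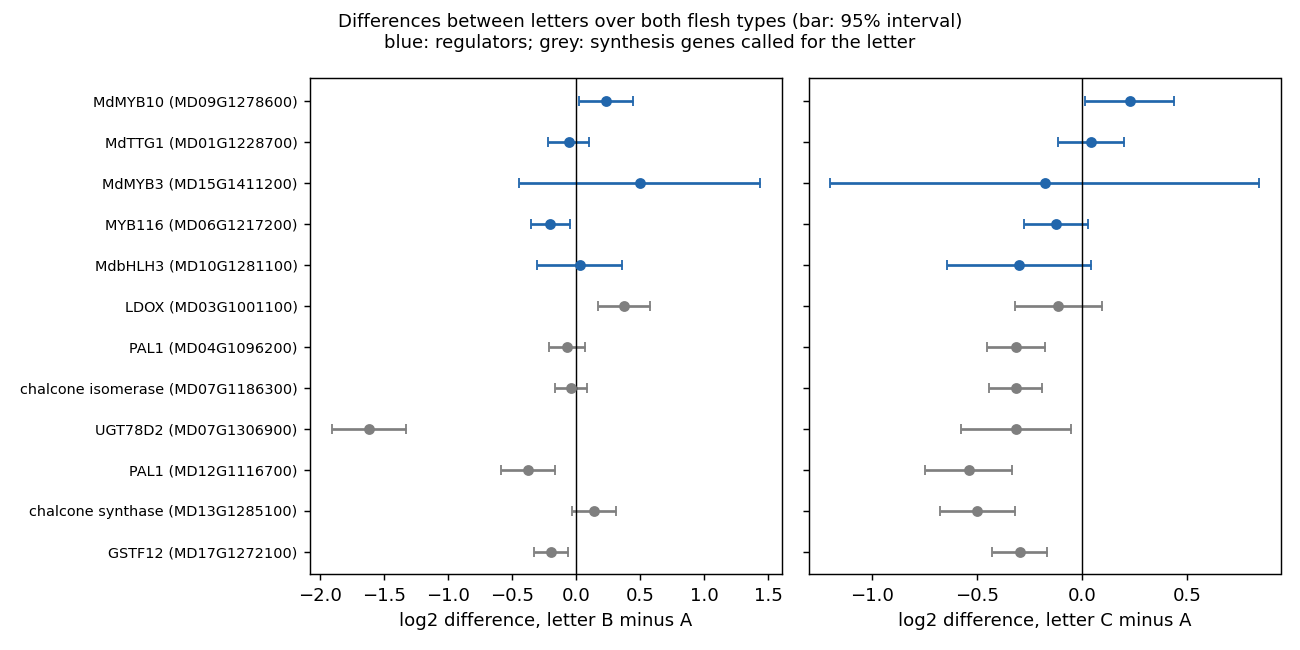
Log2 difference between letters B and A (left) and C and A (right) over both flesh types, with 95% intervals, for the 4 regulators and MdbHLH3 (blue) and for the 7 pigment genes called for the letter (grey). MdMYB10 lies at 0.23 in both panels, while UDP-glucosyl transferase 78D2 lies at -1.62 for B minus A.

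The pair differences of the pigment genes were set beside that of MdMYB10. All 22 genes rose in RF in the edgeR test, with a median log2 fold change of 1.13, against -0.00 over all genes tested. Each also rose in all 3 pairs, which adds nothing on direction, since RF and WF libraries overlapped in TPM for none of the 22 genes. They had been listed because the study called them on these samples, so the count is not independent evidence of direction. Of the 22, 19 were called with robust dispersion estimation and 20 to 22 with a library left out. The median log2 difference of CPM of the 22 genes was 1.20, 1.06 and 1.15 in pairs A, B and C. MdMYB10 had 0.60, 0.72 and 0.32 on the same scale. The pair with the largest MdMYB10 difference, B, had the smallest median of the pigment genes, although the 3 medians lay close together. The transport gene glutathione S-transferase phi 12 (MD17G1272100), related to the Arabidopsis protein that carries anthocyanin to the vacuole, rose with a log2 fold change of 2.19 (edgeR adjusted p = 5.44e-06, SE 0.10). UDP-glucosyl transferase 78D2 rose by 2.96 on the log2 scale (edgeR adjusted p = 0.00105, SE 0.41), and lost the call with robust dispersion estimation (edgeR adjusted p = 0.0710, over a range of 2.51e-09 to 0.0710 in all alternatives).

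The other MYB genes held here from the study's list of called genes did not move in 1 direction. They are not the full set, since the study also reported MdMYB9 as lower in RF and none of them carries that name. Of 4 tested, 1 was higher, 2 were lower and 1 was not called, with a median log2 fold change of -0.32. The gene described as myb domain protein 73 (MD15G1076600) rose to 127 ± 10.5 TPM in RF, against 98.3 ± 6.11 TPM in WF (log2 fold change 0.37 with SE 0.07, edgeR adjusted p = 0.00972). A myb-like HTH gene (MD04G1129500) fell to 13.6 ± 0.27 TPM in RF, against 17.9 ± 1.59 TPM in WF (log2 fold change -0.39 with SE 0.08, edgeR adjusted p = 0.0112). The gene described as myb domain protein 66 (MD14G1180900) fell by 0.25 on the log2 scale (edgeR adjusted p = 0.0369, SE 0.07). The gene described as myb domain protein 6 (MD09G1261200), the one not called, had 25.7 ± 3.71 TPM in RF and 34.4 ± 6.56 TPM in WF (edgeR adjusted p = 0.0785). It was called with the replicate block (edgeR adjusted p = 0.000420), and also with DESeq2 and without WF library A, where all 4 were called. Without WF library B 1 of the 4 was called, with edgeR adjusted p-values of 0.0594 for MD04G1129500 and 0.151 for MD14G1180900. The call of MD14G1180900 was also lost without RF library A, B or C (edgeR adjusted p-values of 0.0740 to 0.130).

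Of 10 other bHLH genes, 8 were tested, of which 4 were higher and 4 lower in RF, with a median log2 fold change of 0.00. The largest differences were 1.06 (edgeR adjusted p = 0.0265, SE 0.26) for MD06G1084400 and -0.45 (edgeR adjusted p = 0.00303, SE 0.07) for MD12G1241500. MD16G1282500 rose by 0.44 (edgeR adjusted p = 0.0135, SE 0.09), and MD17G1049300, the most abundant of the list, fell by 0.42 (edgeR adjusted p = 0.00975, SE 0.09). The call of MD06G1084400 was lost without WF library A or RF library B (edgeR adjusted p-values of 0.0759 and 0.0921), and that of MD16G1282500 without WF library B or RF library A (0.0532 and 0.0591). MdbHLH3, with 0.71, thus lay between the largest and the second of these.

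Of 12 other WD40 genes, 11 were tested, of which 6 were higher and 4 lower in RF, with a median log2 fold change of 0.37. MD14G1031200 rose by 1.02 (edgeR adjusted p = 0.000470, SE 0.12) and MD06G1086200 by 0.69 (edgeR adjusted p = 0.0309, SE 0.18). MD16G1177700 fell by 0.40 (edgeR adjusted p = 0.0266, SE 0.10) and MD11G1306000 by 0.37 (edgeR adjusted p = 0.00985, SE 0.08). Without WF library B 6 of the 11 were called, and without RF library A 4. Among those named, the call of MD06G1086200 was lost without WF library A or RF library A (edgeR adjusted p-values of 0.0854 and 0.114), and that of MD16G1177700 without WF library B, RF library A or RF library B (0.0927, 0.0974 and 0.0570). The study's own calls supplied most MYB, bHLH and WD40 genes listed here, and a high share of calls was built into the lists.

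The 4 regulators that the study placed in its chromosome 8 interval for pigmentation pattern were not called. MYB44 (MD08G1092000) is an R2R3-MYB, and the study cites work in which it lowered pigment genes in crabapple leaves. It had 112 ± 6.85 TPM in RF and 126 ± 9.24 TPM in WF (log2 fold change -0.18, edgeR adjusted p = 0.145). MYB-3R (MD08G1117700) had 67.8 ± 3.77 TPM in RF and 60.2 ± 4.16 TPM in WF (log2 fold change 0.17, edgeR adjusted p = 0.152). Both were called with the replicate block, that is, the letter as a term beside flesh type (edgeR adjusted p = 0.0212 for MYB44 and 0.0311 for MYB-3R). The light-response factor HY5 (MD08G1147100) had 5.24 ± 1.52 TPM in RF and 4.63 ± 0.94 TPM in WF, and WRKY11 (MD08G1127200) had 22.5 ± 1.71 TPM in RF and 23.6 ± 1.10 TPM in WF. The log2 fold change of HY5, 0.18, turned to -0.10 without RF library A.

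**Figure D5:**
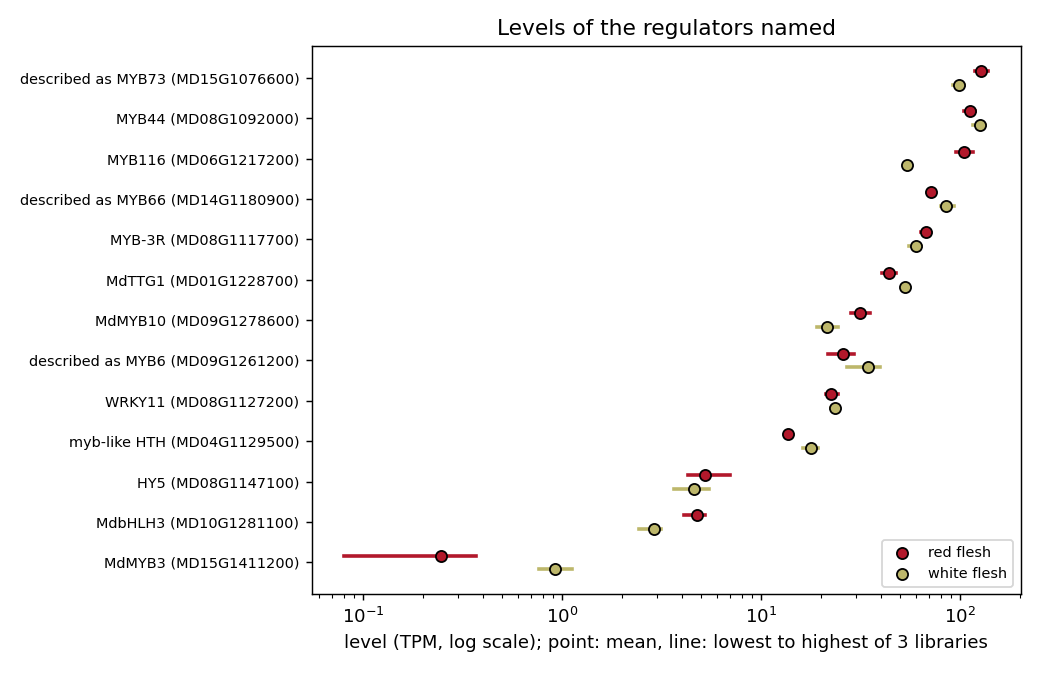
Level in TPM (horizontal axis, log scale) of the 4 regulators, MdbHLH3, the chromosome 8 candidates and the other MYB genes, with RF above WF in each row, points for means and lines from the lowest to the highest of 3 libraries. MdMYB3 lies lowest, at 0.246 TPM in RF and 0.922 TPM in WF, and MdMYB10 lies in the middle of the range.

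In the branches that compete with or share precursors with anthocyanin, 4 of 7 genes were tested and 1 was called. MdANR (MD01G1077800), the reductase that makes flavan-3-ols from anthocyanidins, had 40.9 ± 2.49 TPM in RF and 31.1 ± 5.34 TPM in WF (log2 fold change 0.39 with SE 0.11, edgeR adjusted p = 0.0436). This call did not survive when any library except WF library C was left out, with edgeR adjusted p-values of 0.0785 to 0.144. The second MdANR (MD05G1335600) had a log2 fold change of 0.29 (edgeR adjusted p = 0.163). The flavonol synthase genes MdFLS had 0.18 (MD08G1168600, edgeR adjusted p = 0.635) and -0.16 (MD15G1353800, edgeR adjusted p = 0.297). Leucoanthocyanidin reductase, MdLAR, had few counts, since MD06G1211400, MD13G1046900 and MD16G1048500 together spanned 0 to 5 counts per library in RF and 0 to 7 in WF, too few to test.

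Markers of other tissue types differed between RF and WF beside the regulators. Of 28 green-tissue genes, 26 were tested, 22 were higher and 0 lower in RF, and their summed level was 2788 to 2817 TPM in RF and 1629 to 1910 TPM in WF. Examples were photosystem I P subunit (MD07G1160900, log2 fold change 2.10, edgeR adjusted p = 0.00105) and ribulose bisphosphate carboxylase small chain 1A (MD17G1244400, 1.99, edgeR adjusted p = 7.34e-05). Photosystem I subunit H2 (MD02G1178900) was at 0 in all libraries. Going the other way, chlorophyll A/B binding protein 1 (MD10G1265400) had 152 ± 9.07 TPM in RF and 180 ± 14.3 TPM in WF, without overlap. It was not called (log2 fold change -0.24, edgeR adjusted p = 0.0546) but was called lower with the replicate block (edgeR adjusted p = 0.0191). A rubisco activase too low to test (MD07G1202200) was also lower, at 0.246 ± 0.060 TPM in RF and 0.563 ± 0.208 TPM in WF. All 3 epidermis genes were higher in RF, with a summed level of 35.6 to 63.0 TPM in RF and 18.6 to 22.3 TPM in WF. They were led by lipid transfer protein 4 (MD12G1187100, log2 fold change 3.62, edgeR adjusted p = 0.000660) and 3-ketoacyl-CoA synthase 10 (MD08G1046600, 1.20, edgeR adjusted p = 0.00472). All 3 epidermis genes and 25 of the 28 green-tissue genes were drawn from genes the study called on these samples. The counts are therefore not independent evidence of direction. Over all genes tested, 6.08% were called higher and 4.68% lower. The part of green tissue or epidermis in the values of the 4 regulators was not tested.

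Genes next to the regulators, which were not picked for how they moved, were examined as 5 gene IDs on each side. Of these 40 genes 24 were tested, of which 0 were higher and 1 was lower in RF (4.17%, against 10.8% of all genes tested). With the replicate block 4 were called, against 18.8% of all genes tested, and 2 without WF library A, WF library C or RF library B. The gene called in both fits was MD01G1228800, the next ID after MdTTG1, which has no description in the sources used here. It had 0, 3 and 2 counts in RF libraries A, B and C, against 81, 51 and 21 counts in WF libraries A, B and C (log2 fold change -4.81, edgeR adjusted p = 0.00146). It passed the filter through WF only, as MdMYB3 did. In the fit with flesh type only, none of the 5 tested neighbours of MdMYB10, the 9 of MdMYB3 or the 5 of MYB116 was called. Of the 4 called with the replicate block, 2 were next to MdTTG1, 1 was next to MdMYB10, 1 was next to MdMYB3 and 0 were next to MYB116.

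Within tissues, MdMYB10 varied between libraries more than most genes of like level. Its biological coefficient of variation was 8.83%, and 88.4% of the 500 genes nearest in level had a lower one (median 6.68%). MYB116 had 7.25%, with 86.2% of its nearest genes lower, whereas MdTTG1 (6.19%) and MdMYB3 (17.2%) lay near the middle, with 58% and 56% lower.

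After the tissue means were removed, the deviations of log2 CPM of the 4 genes were set against each other over the 6 libraries, as a description only. Pearson's r was -0.68 between MdMYB10 and MYB116, -0.74 between MdTTG1 and MdMYB3, 0.56 between MdTTG1 and MYB116, -0.46 between MdMYB10 and MdTTG1, 0.29 between MdMYB10 and MdMYB3 and -0.11 between MdMYB3 and MYB116. The genes most like MdMYB10 by this measure, among 1786 with a description and a mean of at least 100 counts, were MD01G1069800 (Ribosomal L5P family protein, r 0.998), MD13G1092200 (Oxidoreductase, r 0.995) and MD15G1188800 (Heavy metal transport/detoxification superfamily protein, r 0.993). MD15G1188800 itself had 213.6 ± 8.77 TPM in RF and 250.7 ± 6.97 TPM in WF, opposite in direction to MdMYB10. For MdMYB10, 81 genes exceeded an r of 0.9 and 123 lay beyond 0.9 in the negative direction. All such values rest on the same 6 libraries, and most descriptions held were of genes the study called.

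For MdTTG1 the most alike were MD03G1141900 (AAA-type ATPase family protein, r 0.992), MD05G1286700 (3-ketoacyl-acyl carrier protein synthase I, r 0.987) and MD12G1032200 (alpha/beta-Hydrolases superfamily protein, r 0.978). For MYB116 they were MD03G1152100 (Polynucleotidyl transferase, r 0.994), MD16G1099600 (eukaryotic translation initiation factor 4B1, r 0.989) and MD17G1040100 (Peroxidase superfamily protein, r 0.987). For MdMYB3, whose deviations rest on 2 to 28 counts, they were MD04G1130500 (NAD(P)-binding Rossmann-fold superfamily protein, r 0.984), MD08G1245400 (Beta-glucosidase, r 0.976) and MD13G1122300 (dihydrosphingosine phosphate lyase, r 0.966). No pigment gene was among the 12. At most 22 of the 1786 or 1787 genes searched for each regulator were pigment genes, so nothing is read from this.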

How the data were processed

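Poly(A)-enriched, strand-marked libraries were sequenced as paired reads. The authors deposited 1 quantification table per library, with an estimated count of reads, a TPM value, a length and an effective length for each gene. The layout is that of the program salmon, and its version, settings and use of strand are not given in the sources at hand. The IDs follow the GDDH13 apple genome named in the study's methods. Reads matching several genes are shared out among them, which leaves fractions in the estimated counts. For MdMYB3 all 6 were whole (within 0.01), whereas those of MdMYB10 were whole in 1 library and those of MdTTG1 and MYB116 in 0, as happens where reads also match other genes.

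The estimated counts were rounded and fitted with edgeR (4.0.16, R 4.3.3) by its quasi-likelihood test, with TMM normalisation, its expression filter and flesh type as the only term. Two-sided p-values were adjusted by the Benjamini-Hochberg method over 28610 genes, and genes were called under 0.05. The test of the letter used flesh type and letter together. TPM values were described and not tested. The scripts were checked on simulated data. DESeq2 (1.42.0), which the study used, its size factors, no filter, effective-length offsets, a mean of at least 50 counts, robust dispersion, the replicate block and leaving out each library were alternatives.

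By the labels, RF and WF came from shared fruits. The labels do not state that a letter marks the same fruits in both tissues. Same-letter deviations from the group means correlated at 0.269 (A), 0.232 (B) and 0.234 (C) across genes, against at most 0.000425 between different letters. Deviations from a group mean cancel out, so positive same-letter values push the others down. On these values the letters were taken as pairs, which remains an assumption.

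The regulators and gene lists were chosen with earlier results of these data known. Named were the 4 regulators, MdbHLH3, all candidates and branch genes, the 2 largest called changes in each direction of every other list, called neighbours and the 3 genes most like each regulator. Genes outside this rule are named only where a sentence says why they stand out, such as a level of 0. Names came from the study, and descriptions, held for 2124 IDs of which 1939 were called by the study, from its annotation. None of the IDs matched the RefSeq table at hand (assembly GDT2T_hap1, 0 of 52311). By name, its MYB10 and TTG1 lie on the same chromosomes (9 and 1) as the IDs used here, while its MYB3 lies on chromosome 5, not 15, and its BHLH3 on 11, not 10, so these names may refer to different genes there.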

Additional observations from a re-analysis of the deposited data

How the results depend on the processing

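The log2 fold changes of the 4 regulators kept their direction in all alternatives that gave a value, at 0.46 to 0.64 for MdMYB10, -0.32 to -0.21 for MdTTG1, -2.30 to -1.48 for MdMYB3 and 0.87 to 1.02 for MYB116. MdMYB3 was not tested at a mean of at least 50 counts. The log2 difference of the MdMYB10 to MdMYB3 ratio was 1.48 with 0.5 TPM added and 2.05 to 3.04 with a library left out. Genes called higher and lower numbered 1740 and 1340, against 2981 and 2401 with the replicate block, which takes the letters as pairs. They ranged over 939 to 1624 higher and 666 to 1523 lower with a library left out. The lowest were 939 higher and 705 lower without WF library B, and 941 higher and 666 lower without RF library A. Without RF library C 807 were lower. Calls among neighbouring genes were 0 at a mean of at least 50 counts, 4 with the replicate block and 1 to 2 with a library left out. Genes called for the letter were 669, against 308 with DESeq2 and 457 to 2784 with a library left out (1841 without WF library C and 2784 without RF library C). The log2 fold change of HY5, 0.18, was -0.10 without RF library A, and spanned -0.10 to 0.31 with a library left out. The causes of these shifts were not tested. Besides MYB44 and MYB-3R, the replicate block changed the call of none of the genes named by rule in the lists. Depth limits MdMYB3, where 2 to 9 counts in RF leave the size of its difference uncertain.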
